A study of Mus musculus with 42 samples.

Results

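The stearoyl-CoA desaturase genes of the mouse are Scd1, Scd2, Scd3 and Scd4, and all 4 were followed here through every liver comparison of the study. They were chosen by name from the gene column of the deposited tables and are 4 of 19758 names listed in any table. Scd1, Scd2 and Scd3 are listed in all 6 tables, whereas Scd4 is listed in 5 and is not in the table of WT obese mice with and without RvE1.

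Livers came from 42 male mice on a C57BL/6J background, 7 per group, and each gave a single RNA sequencing library. WT mice and littermates lacking ChemR23 were started on their diets at 6 weeks of age. ChemR23, encoded by Cmklr1, is a receptor for the lipid mediator resolvin E1 (RvE1), and the knockout (KO) had been made by CRISPR/Cas9 editing, with no restriction to the liver stated. WT lean and KO lean mice ate a control diet with 10% of energy from fat, and WT obese and KO obese mice ate a lard-based diet with 60% of energy from fat, in both cases for 15 weeks. The mice of these 4 groups received vehicle (ethanol in phosphate-buffered saline). WT obese+RvE1 and KO obese+RvE1 mice ate the 60% diet and received 300 ng RvE1 intraperitoneally on 4 consecutive days. Livers were taken on day 5 after at least 4 hours without food, so every group was fasted and none was refed. Diet and body weight changed together, and their parts cannot be told apart.

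Stearoyl-CoA desaturases sit in the endoplasmic reticulum membrane and convert saturated acyl-CoAs, mainly stearoyl-CoA and palmitoyl-CoA, into the monounsaturated oleoyl-CoA and palmitoleoyl-CoA, which the liver then uses for triglycerides, cholesterol esters and phospholipids. The reaction takes electrons from NADH through cytochrome b5 reductase and cytochrome b5. Scd1 is the main isoform of mouse liver and is known to be induced by insulin, carbohydrate and liver X receptor agonists through SREBP1c and ChREBP and to be repressed by polyunsaturated fat. Scd2 is best known from brain and from the liver of newborn mice, Scd3 from sebaceous glands, and Scd4 from heart.

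The 4 genes lie side by side on chromosome 19. In GENCODE M21 on GRCm38, the build that mm10 names, the cluster spans chr19:44203269-44407879, or 204.6 kb. Scd3 (chr19:44203269-44244016), Scd2 (chr19:44293674-44306864) and Scd4 (chr19:44333092-44346743) are on the plus strand, and Scd1 (chr19:44394455-44407879) is on the minus strand at the far end. The longest coding transcript of each has 6 exons, with 1065 coding bases in Scd1, 1074 in Scd2, 1077 in Scd3 and 1059 in Scd4. The coding sequences are close copies. Scd3 matched Scd1 at 90.4% of aligned coding positions, Scd2 at 89.6% and Scd4 at 84.1%.

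Because reads from near-identical stretches can be lost or given to the wrong copy, the sequences bear on every value below. The stretch in which the copies differ most from Scd1 is shown first, with capitals where a gene differs from Scd1 in the alignment. Over these 60 bases Scd2 differs at 10 positions, Scd3 at 18 and Scd4 at 17.

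Scd1: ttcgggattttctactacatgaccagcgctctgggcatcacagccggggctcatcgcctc

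Scd2: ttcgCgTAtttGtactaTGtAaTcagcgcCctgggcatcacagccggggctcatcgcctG

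Scd3: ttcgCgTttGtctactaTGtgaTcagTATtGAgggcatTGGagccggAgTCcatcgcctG

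Scd4: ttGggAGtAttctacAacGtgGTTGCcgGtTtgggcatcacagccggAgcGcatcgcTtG

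A read from such a stretch can be placed on its own gene. Elsewhere the copies do not differ at all, and the longest run that all 4 share is given next, from coding position 586 to 646 of Scd1.

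Shared run: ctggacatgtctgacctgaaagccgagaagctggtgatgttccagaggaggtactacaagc

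Over whole transcripts with their untranslated ends the shared part is small. Of the 50-base windows of Scd3, 4.85% occur unchanged in Scd1, against 2.58% of those of Scd4 and 2.68% of those of Scd2. No source used here says how reads that fit more than a single place were handled, or whether counting used strand. Part of the few reads counted on Scd2, Scd3 and Scd4 could therefore come from the far more abundant Scd1. The values of these genes and their ratios to Scd1 are uncertain to that extent. An antisense gene (AC125101.1) overlaps Scd3 and a microRNA gene (Mir5114) lies inside Scd2, but neither name is listed in any table.

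Values below are normalized counts as deposited, that is, reads on a gene scaled by a factor for each library. The scaling was made separately for each table, so the same mouse has slightly different values in different tables and groups were compared only within a table. Libraries held 15976714 to 43805397 reads on listed genes (median 24277649). The targeted gene, Cmklr1, followed the genotype labels. Between obese genotypes its Log2FC was −2.04 (BH-adjusted p = 0.0339 in limma). That call was lost with a random block for the number that opens each mouse identifier (−2.16, BH-adjusted p = 0.153 in limma). Cmklr1 averaged 64.3 ± 25.1 normalized counts in WT lean and 12.7 ± 4.69 in KO lean mice (SD, n = 7 each), with a Log2FC of −2.23 and a BH-adjusted p of 0.000492 in limma, and no KO lean mouse reached the lowest WT lean mouse. All 8 hepatocyte markers were listed in every table, with Alb the most abundant of them, and none was called changed in any comparison. A single library stood apart for the desaturases before any test. KO obese+RvE1 replicate 2 had 6688 normalized counts of Scd1 where the other 6 mice of its group had 56478 to 249458, and results that rest on it are given with and without it.

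Scd1 supplied nearly all reads of the family. In every mouse at least 98.5% of the reads on the listed desaturases were on Scd1, and among all genes it ranked 2nd by mean normalized count in both WT lean and KO lean liver. The median share of all reads on listed genes that fell on Scd1 was 3.65% in WT lean and 2.80% in KO lean mice. In the obese groups the median share was 0.809% in WT, 0.567% in KO, 0.783% in WT with RvE1 and 0.707% in KO with RvE1. All 14 lean mice together spanned 1.06% to 4.85%, and all 28 mice on the 60% diet 0.0263% to 1.77%. The lower end was KO obese+RvE1 replicate 2, and without it the lowest share on the 60% diet was 0.189%.

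Per length of transcript the order of the median levels was the same in all 4 vehicle groups. Levels per length were computed as reads divided by exonic length and by the library's total (RPKM). In WT lean liver the median level was 7460 RPKM for Scd1, 13.2 for Scd3, 1.10 for Scd2 and 0.316 for Scd4. In WT obese liver the medians were 1653, 2.55, 0.802 and 0.0876 RPKM in that order of genes. The order was Scd1, Scd3, Scd2, Scd4, but the ranges of Scd3 (1.17 to 5.14 RPKM) and Scd2 (0.413 to 1.75 RPKM) overlapped in WT obese mice. In KO lean liver the medians were 5714, 4.597, 0.845 and 0.161 RPKM, and in KO obese liver 1158, 2.41, 1.05 and 0.0725 RPKM, again with overlapping ranges of Scd3 and Scd2 in the obese group.

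**Figure D1:**
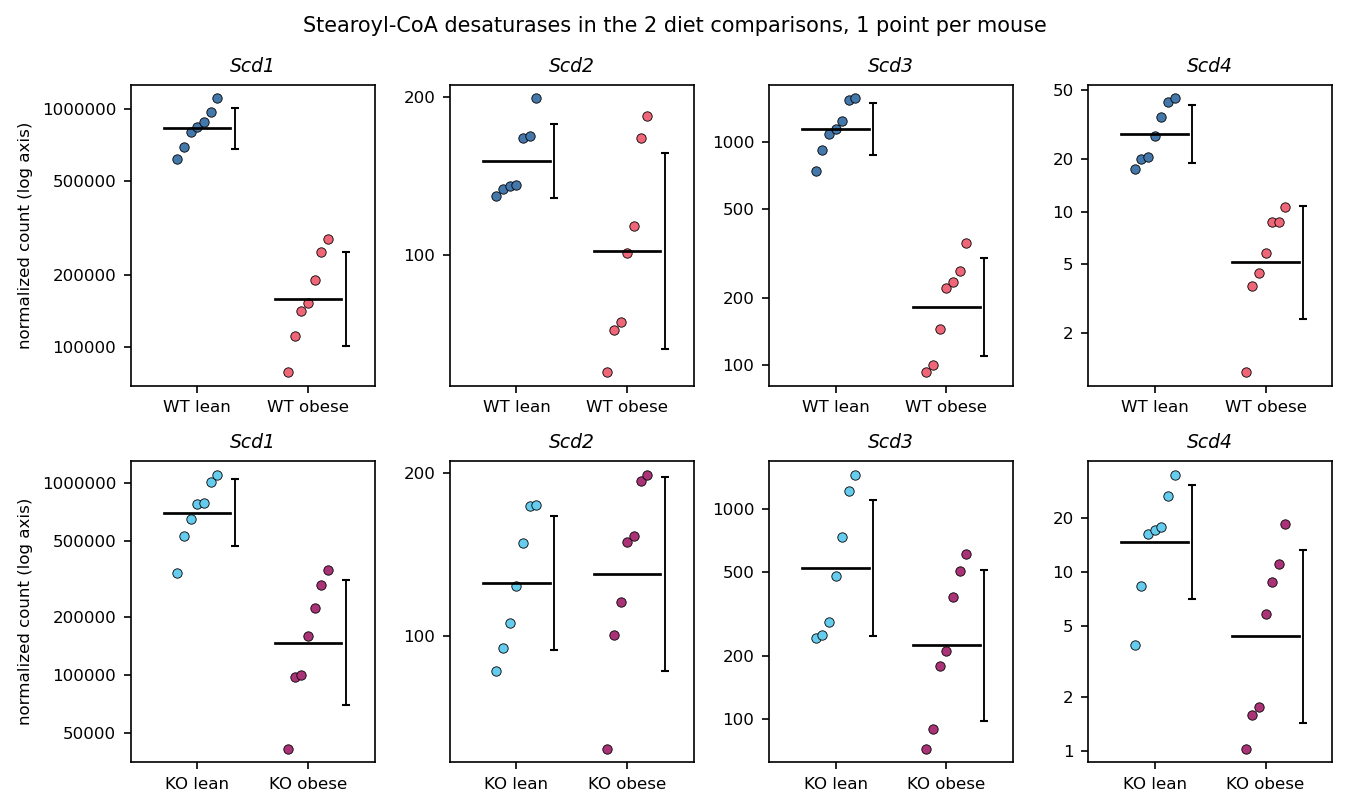
Normalized counts of Scd1, Scd2, Scd3 and Scd4 (vertical axes, log scale) in each mouse of the WT diet table (upper row) and the KO diet table (lower row), with 1 point per mouse, a line at the mean of the log2 values and a bar of 1 SD to either side. The Scd1, Scd3 and Scd4 points of WT obese mice all lie below those of WT lean mice, whereas the Scd2 points overlap and the KO groups overlap in each gene.

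The first question was how obesity on the 60% diet changed the desaturases of WT liver. Scd1, Scd3 and Scd4 were all several-fold lower in WT obese than in WT lean mice, with no overlap between groups, and Scd2 was not called. These 3 of 4 members compare with 1.53% of the 14012 genes tested that were called lower at a BH-adjusted p below 0.1 and a fold change above 1.5, and with 0.564% that were lower without overlap. In either direction 3.80% of the genes were called. In bulk liver RNA, fewer cells of a type and less RNA per cell cannot be told apart.

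Scd1 in WT lean mice ranged from 618356 to 1111685 normalized counts with a median of 843672, and in WT obese mice from 78121 to 284206 with a median of 153509. The highest obese mouse thus lay far below the lowest lean mouse. On the log2(normalized count + 1) scale used for all fold changes, the Log2FC was −2.39 (SE 0.30), a 5.24-fold reduction, with a BH-adjusted p of 0.000688 in limma. Only 12 genes among those called lower had a more negative Log2FC than Scd1.

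Scd3 was several-fold lower as well. It ranged from 736 to 1566 normalized counts (median 1145) in WT lean and from 92.6 to 353 (median 222) in WT obese mice. Again no obese mouse reached the lean range. The Log2FC was −2.64 (SE 0.27), or 6.24-fold, with a BH-adjusted p of 0.000116 in limma.

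Scd4 was near the lower limit of measurement in these libraries. It ranged from 17.5 to 44.7 normalized counts (median 27.3) in WT lean and from 1.20 to 10.6 (median 5.80) in WT obese mice, where the values stand for 1 to 12 reads per library. The groups did not overlap. The Log2FC was −2.18 (SE 0.35) with a BH-adjusted p of 0.00303 in limma.

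Scd2 did not pass the test in WT mice. It ranged from 129.8 to 199 normalized counts (median 136) in WT lean and from 60.0 to 184 (median 101.3) in WT obese mice. The obese mice spread widely, with 5 of 7 below every lean mouse and the other 2 inside the lean range. The Log2FC was −0.56 (SE 0.23, 95% interval −1.04 to −0.08) with a BH-adjusted p of 0.196 in limma. Whether it was called hung on few mice. Without WT obese replicate 5 the Log2FC was −0.70 and the BH-adjusted p in limma 0.0903, and without all 3 obese mice whose identifier opens with the number 6, replicate 5 among them, they were −0.95 and 0.0269. Without the 3 of number 27 the Log2FC was −0.14 (BH-adjusted p = 0.779 in limma).

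The same diet comparison was made in mice without ChemR23. Scd1 and Scd4 were lower in KO obese than in KO lean mice, Scd3 was lower in the mean without passing the test, and Scd2 was at the same level to within its error. The 2 of 4 members called lower compare with 5.42% of the 14213 genes tested (10.4% in either direction). With a random block for the opening number of the mouse identifier 1 of the 4, Scd1, was called, and 750 genes of the table in place of 1476.

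Scd1 ranged from 341107 to 1103923 normalized counts (median 776475) in KO lean and from 41336 to 353565 (median 159708) in KO obese mice. The lowest lean mouse lay just under the highest obese mouse, and the other 6 obese mice were below all lean mice. The Log2FC was −2.25 (SE 0.43) with a BH-adjusted p of 0.00591 in limma.

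Scd3 varied widely among KO lean mice. It ranged from 245 to 1458 normalized counts (median 480) in KO lean and from 72.3 to 609 (median 211) in KO obese mice. Of the 7 obese mice, 4 fell below all lean mice. The Log2FC was −1.22 (SE 0.52) with a BH-adjusted p of 0.114 in limma, and it was called without KO lean replicate 7 or without KO obese replicate 5, at −1.40 and −1.46. It was also called without all mice of number 9 (−1.65) or of number 31 (−2.06). Another leave-out by number gave −0.69 and no call.

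Scd4 ranged from 3.91 to 34.8 normalized counts (median 17.0) in KO lean and from 1.03 to 18.5 (median 5.79) in KO obese mice. The groups overlapped between 3.91 and 18.5 normalized counts, with 3 obese mice below all lean mice. The Log2FC was −1.45 (SE 0.54) with a BH-adjusted p of 0.0776 in limma. This call was lost in 7 of the 14 fits that left out a single mouse, in which the Log2FC lay between −1.74 and −1.20. The random block removed it as well (−1.53, BH-adjusted p = 0.151 in limma).

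Scd2 ranged from 86.1 to 174 normalized counts (median 124) in KO lean and from 62.0 to 198 (median 148.9) in KO obese mice. The obese range enclosed the lean range. The Log2FC was 0.06 (SE 0.24, 95% interval −0.46 to 0.57) with a BH-adjusted p of 0.898 in limma.

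Whether the diet difference itself depended on genotype was tested with an interaction term over the 28 vehicle-treated mice. No member passed, where 0.00717% of 13941 genes did. The number of genes passing depended strongly on the method. At the same adjusted p, edgeR called 1 gene, DESeq2 930 and limma with library weights 2564. With the random block 0 were called. No desaturase was among the genes called by any of these fits. The KO difference minus the WT difference was 0.14 (SE 0.53) for Scd1, 0.62 (SE 0.35) for Scd2, 1.42 (SE 0.63) for Scd3 and 0.73 (SE 0.67) for Scd4 on the log2 scale. The value for Scd3 had a raw p of 0.0315 and a BH-adjusted p of 0.224 in limma. The diet difference was therefore not shown to differ between genotypes for any of the 4 genes (95% interval −0.94 to 1.23 for Scd1).

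**Figure D2:**
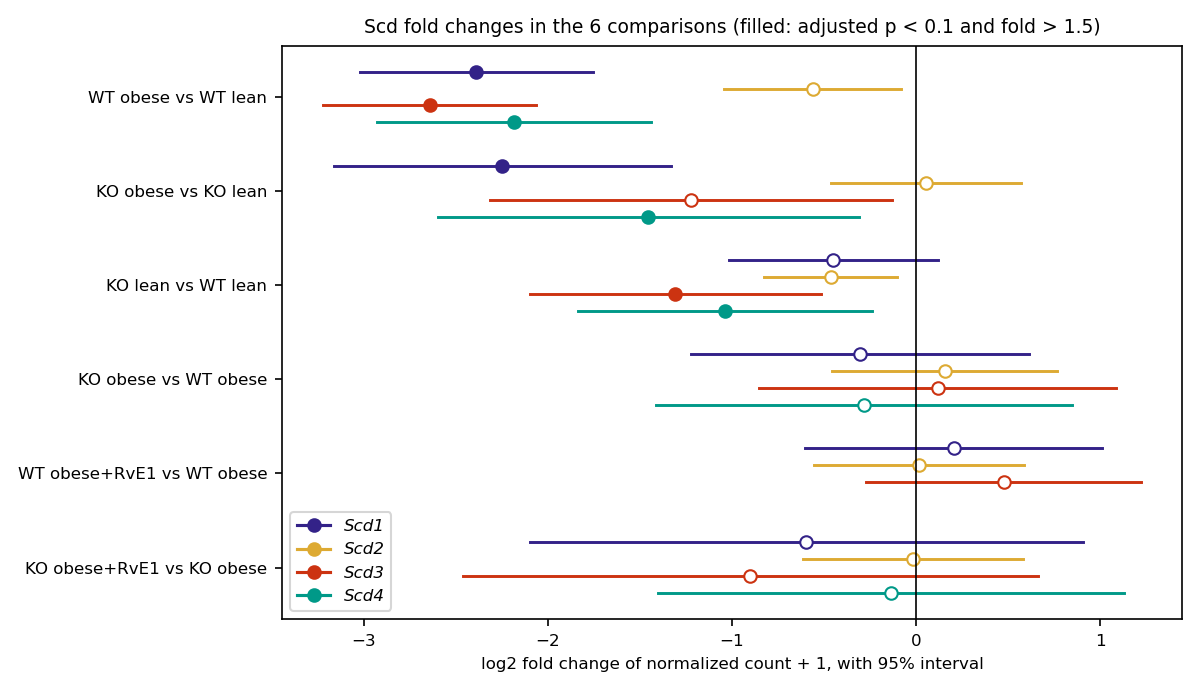
Log2FC of each desaturase gene (horizontal axis, log2 of normalized count + 1) in each comparison, with points for the estimate, bars for the 95% interval and filled points for genes called at a BH-adjusted p below 0.1 and a fold change above 1.5. Scd1, Scd3 and Scd4 lie left of zero in both diet comparisons, from −2.64 to −1.22, and all RvE1 intervals cross zero.

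The lean mice compare the genotypes on the control diet. No identifier number occurs in both lean groups, so genotype and whatever that number stands for cannot be told apart. Scd3 and Scd4 were lower in KO lean than in WT lean mice, and Scd1 and Scd2 were not called. The 2 of 4 members called lower compare with 2.70% of the 13031 genes tested (6.65% in either direction). With a random block for the opening number of the mouse identifier neither was called (BH-adjusted p of 0.146 for Scd3 and 0.196 for Scd4 in limma), and 3 genes of the whole table were. The KO lean mice of this comparison also serve as the reference of the KO diet comparison above, and the WT lean mice as that of the WT diet comparison, so these results share samples.

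Scd3 ranged from 767 to 1618 normalized counts (median 1191) in WT lean and from 222 to 1325 (median 436) in KO lean mice. Of the 7 KO lean mice, 5 were below every WT lean mouse and the other 2 were inside the WT range. The Log2FC was −1.31 (SE 0.37) with a BH-adjusted p of 0.0509 in limma, and the call was lost without WT lean replicate 2, KO lean replicate 4 or KO lean replicate 6, where the Log2FC lay between −1.24 and −1.12.

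Scd4 ranged from 18.2 to 46.2 normalized counts (median 28.5) in WT lean and from 3.55 to 31.6 (median 15.5) in KO lean mice. Here too 5 of 7 KO lean mice were below all WT lean mice. The Log2FC was −1.04 (SE 0.38) with a BH-adjusted p of 0.0916 in limma, and the call was lost in 9 of the 14 fits that left out a mouse. Neither call held in edgeR.

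Scd1 overlapped broadly between the lean genotypes. It ranged from 644502 to 1156104 normalized counts (median 876650) in WT lean and from 310753 to 1002266 (median 705714) in KO lean mice. The Log2FC was −0.45 (SE 0.27, 95% interval −1.02 to 0.12) with a BH-adjusted p of 0.298 in limma.

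Scd2 met the p threshold but not the fold threshold. It ranged from 135 to 206 normalized counts (median 142) in WT lean and from 78.1 to 158 (median 112) in KO lean mice, a 1.38-fold difference with a Log2FC of −0.46 (SE 0.17) and a BH-adjusted p of 0.0968 in limma.

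Among obese mice, no desaturase was called between the genotypes at this group size, and the 95% intervals were wide. Only 0.0141% of 14162 genes were called in that comparison. Scd1 had a median of 168402 normalized counts in WT obese (range 86040 to 312652) and of 153219 in KO obese mice (range 40079 to 338455). The KO range enclosed the WT range. The Log2FC from WT obese to KO obese was −0.30 (95% interval −1.22 to 0.62) for Scd1 and 0.16 (−0.45 to 0.77) for Scd2. It was 0.12 (−0.85 to 1.09) for Scd3 and −0.28 (−1.41 to 0.85) for Scd4. The BH-adjusted p was 0.9999 for each in limma.

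The RvE1 comparisons asked whether 4 days of the resolvin altered hepatic transcripts of obese mice with and without its receptor. No desaturase was called in either genotype, nor was any other gene (0% called of 13085 genes in WT and of 14207 in KO). At an unadjusted p below 0.05, limma counted 795 genes in WT and 1179 in KO. At a BH-adjusted p below 0.1 and a fold change above 1.5, edgeR called 1 gene in WT and 0 in KO, and DESeq2 called 15 and 14, with no desaturase among them.

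In WT mice Scd1 ranged from 91650 to 333495 normalized counts (median 179966) with vehicle and from 94538 to 506012 (median 184692) with RvE1. The medians nearly coincided and the RvE1 group reached higher. The Log2FC was 0.21 (95% interval −0.60 to 1.01) with a BH-adjusted p of 0.982 in limma. For Scd3 the range was 109 to 417 (median 260) with vehicle and 168 to 584 (median 284) with RvE1, and the Log2FC was 0.48 (95% interval −0.27 to 1.22). For Scd2 the Log2FC was 0.02 (95% interval −0.55 to 0.58).

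In KO mice Scd1 ranged from 41789 to 354939 normalized counts (median 160972) with vehicle and from 6688 to 249458 (median 167663) with RvE1. The medians again lay close together, and the lowest value of the RvE1 group was that of replicate 2. The Log2FC was −0.59 (95% interval −2.10 to 0.91) with a BH-adjusted p of 0.820 in limma, and without KO obese+RvE1 replicate 2 it was 0.05. Scd3 ranged from 73.1 to 612 (median 213) with vehicle and from 8.79 to 474 (median 122) with RvE1, with a Log2FC of −0.90 (95% interval −2.46 to 0.66), which was −0.29 without replicate 2. Scd2 and Scd4 had Log2FC of −0.02 and −0.13, and without replicate 2 these were 0.063 and 0.27.

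Replicate 2 of the KO obese+RvE1 group had few reads on Scd1, Scd3 and Scd4 alike. Its 8.79 normalized counts of Scd3 stand for 6 reads. It had no Scd4 read, which allows up to 3 reads or 4.40 normalized counts, where the other 6 mice had 2.9 to 9.5. Its Scd2 value of 92.3 was the lowest of the group but close to those of the mice at 92.9 and 94.7. No member of the 3 tested passed for the interaction of RvE1 with genotype, nor did any other of 13075 genes (0%) in limma, edgeR or DESeq2, where limma counted 312 genes at an unadjusted p below 0.05. The KO difference minus the WT difference was −0.80 (95% interval −2.54 to 0.94) for Scd1, −0.034 (−0.87 to 0.80) for Scd2 and −1.38 (−3.16 to 0.41) for Scd3 on the log2 scale. Without replicate 2 these were −0.15, 0.047 and −0.77.

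**Figure D3:**
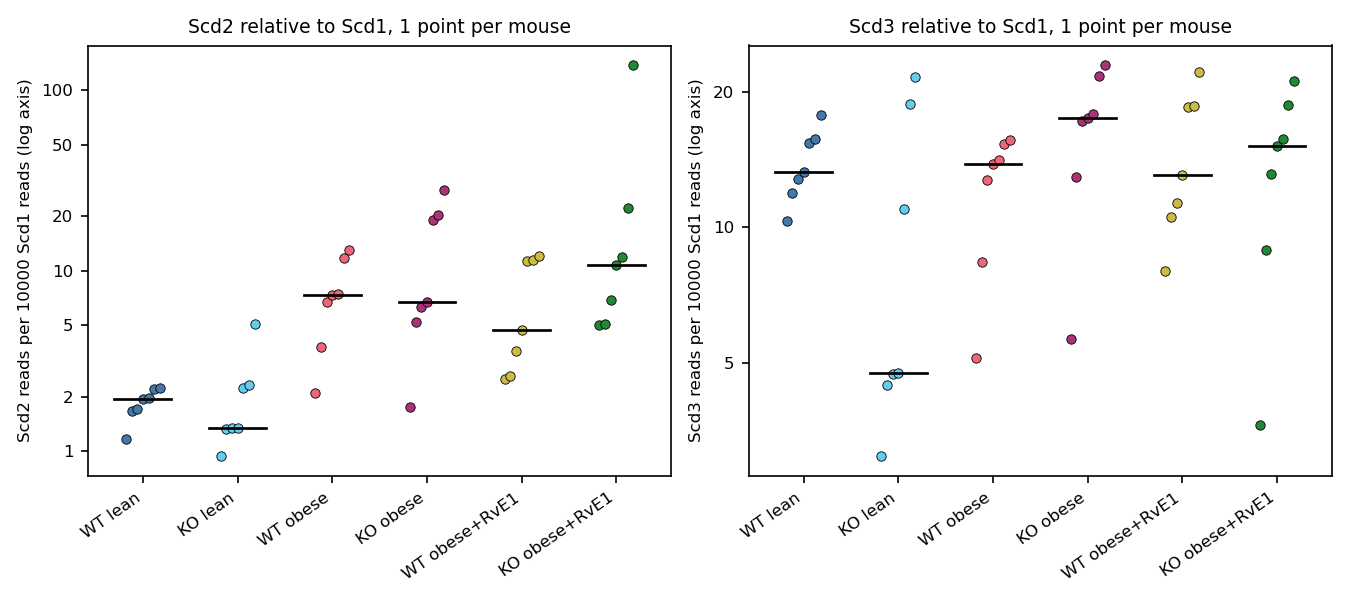
Scd2 reads (left) and Scd3 reads (right) per 10000 Scd1 reads of the same library (vertical axes, log scale) in the 6 groups, with 1 point per mouse and a line at each group's median. Scd2 per Scd1 was higher in obese than in lean mice in the median, 7.36 against 1.96 in WT, whereas the Scd3 medians of WT lean (13.3) and WT obese (13.8) nearly coincide.

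Ratios of members within a library show which of them moved apart from Scd1, and apart from a pseudocount of 1 they do not depend on how the library was scaled. Their log2 values were compared with exact two-sided permutation tests over all splits of 14 libraries into 7 and 7, with 17 ratios tested and BH adjustment over them, for which the smallest possible p was 0.000583. Scd2 rose relative to Scd1 with the 60% diet in both genotypes. In WT mice Scd2 per 10000 Scd1 ranged from 1.17 to 2.25 (median 1.96) when lean and from 2.11 to 13.0 (median 7.36) when obese. The log2 ratio rose by 1.83 with an exact permutation p of 0.00175, or 0.0297 adjusted. In KO mice it ranged from 0.940 to 5.09 (median 1.34) when lean and from 1.75 to 27.98 (median 6.71) when obese. The log2 ratio rose by 2.30 with an exact permutation p of 0.00466, or 0.0396 adjusted. The lean and obese ranges overlapped at their ends in both genotypes. These tests treat mice as independent, whereas Scd1 of KO obese mice differed with the identifier number described below. In leave-outs added after the data were seen, the KO rise did not pass without the mice of number 9 (2.29, adjusted exact permutation p = 0.118), of number 10 (1.31, adjusted p = 0.386) or of number 20 (2.34, adjusted p = 0.155). The WT rise passed in all 7 such leave-outs, at 1.31 to 2.40.

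Scd3 and Scd4 kept no such distance from Scd1 in WT mice. Scd3 per 10000 Scd1 had a median of 13.3 in WT lean and 13.8 in WT obese mice, and the log2 ratio differed by −0.25 (exact permutation p = 0.362, adjusted 0.672). In KO lean mice the median was 4.75, with values from 3.10 to 21.5, and in KO obese mice 17.5. Neither the KO diet difference of 1.03 (exact permutation p = 0.0577) nor the lean genotype difference of −0.86 (exact permutation p = 0.0682) passed after adjustment, both at 0.290. Without KO lean replicate 5 both passed, at 1.28 and −1.11 (adjusted exact permutation p = 0.0892 for each). The lean genotype difference also passed without the mice of number 14, a leave-out added after the data were seen (−1.23, adjusted exact permutation p = 0.0930). No Scd4 ratio passed with all mice and a pseudocount of 1. With as few as 1 read of Scd4 in a library, a shift of that ratio would need to be large to show. Without WT obese replicate 4, which had 1 Scd4 read, the WT diet difference went from 0.21 to 0.60 and passed (adjusted exact permutation p = 0.0528).

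The highest Scd2 ratio belonged to KO obese+RvE1 replicate 2, with 138 Scd2 per 10000 Scd1, whereas its Scd3 per 10000 Scd1 lay inside the group's range of 3.62 to 21.1.

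Mice within a group were not alike, and part of the spread followed the number that opens the mouse identifier. What this number stands for is not stated in the labels, and it was not taken as a batch. Among KO obese mice, the 3 whose identifier opens with 10 had 41336 to 100432 normalized counts of Scd1 in the KO diet table, the single mouse of number 23 had 159708, and the 3 of number 31 had 222022 to 353565. The 3 numbers did not overlap. In the KO obese+RvE1 group, the mice of number 12 had 6688 to 167663 in the KO RvE1 table, those of number 15 had 136770 to 183262 and those of number 23 had 224789 to 249458. With the 3 mice of number 10 left out, the Scd1 Log2FC of the KO diet comparison was −1.50 (BH-adjusted p = 0.0321 in limma), and with those of number 31 left out it was −2.96. In WT obese mice the ranges of numbers 6 (78121 to 250058) and 27 (110843 to 284206) overlapped. For Scd2 of WT obese mice they did not overlap, with 60.0 to 74.7 normalized counts in the 3 mice of number 27 and 101.3 to 184 in the 3 of number 6. Scd3 of KO lean mice separated by number as well. In the lean genotype table it was 222 to 228 normalized counts in number 9, 262 to 669 in number 20 and 1102 to 1325 in number 14. Leaving out number 9 or number 14 moved the lean genotype Log2FC of Scd3 to −0.87, which was not called (BH-adjusted p = 0.175 in limma), or to −1.84.

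**Figure D4:**
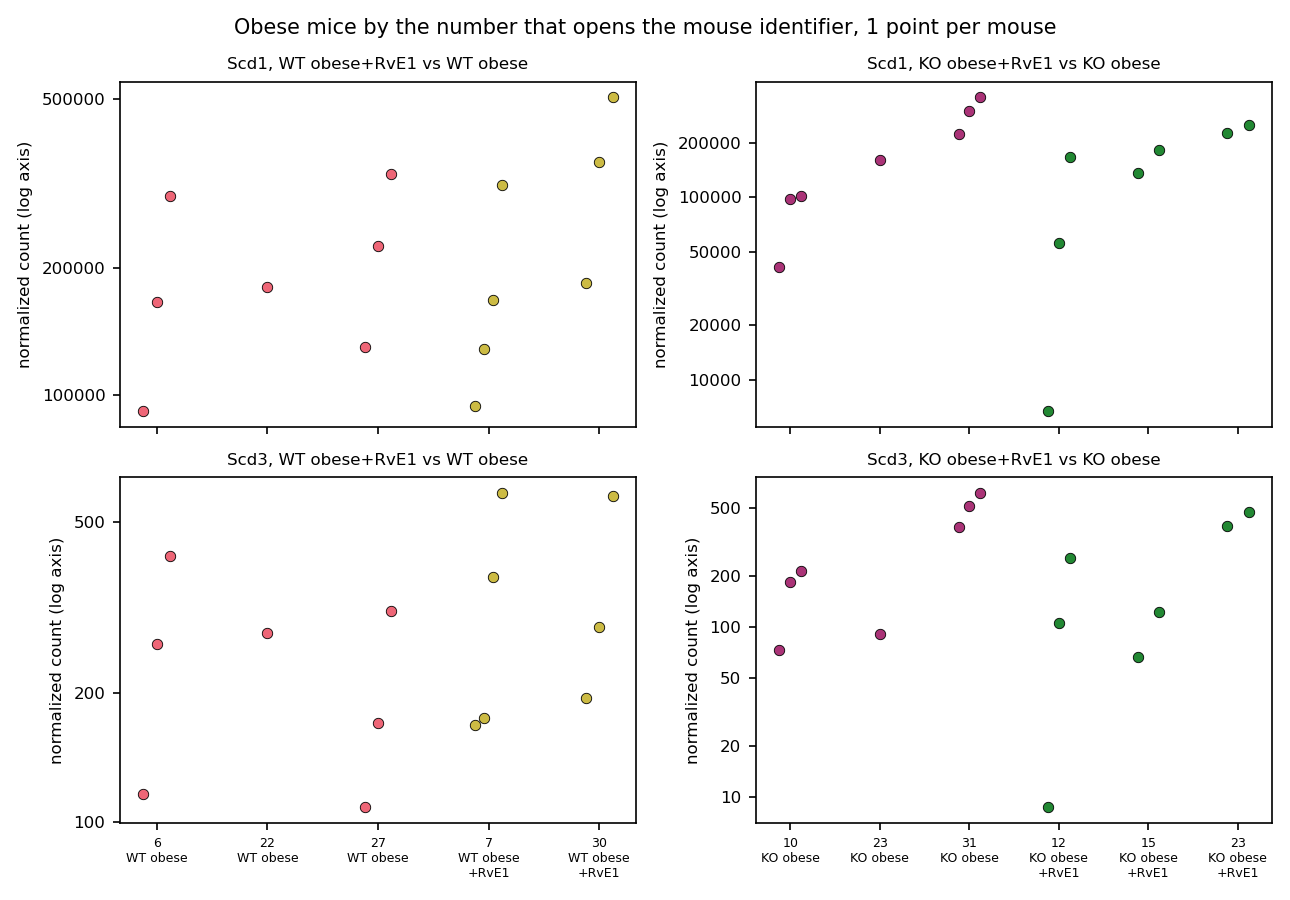
Scd1 (upper row) and Scd3 (lower row) normalized counts (vertical axes, log scale) of each obese mouse in the WT RvE1 table (left) and the KO RvE1 table (right), arranged by the number that opens its identifier and by group. In KO obese mice the Scd1 values of numbers 10, 23 and 31 form separate steps from 41789 to 354939, whereas the numbers overlap in WT obese mice.

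The members also differed in which other genes they resembled. For each member, genes were ranked by the smaller of the Pearson correlations of log2 values over the 14 libraries of the WT diet table and over those of the KO diet table, among 10389 genes with a mean of at least 50 normalized counts. The libraries of a table share the diet contrast, so genes that fall with diet resemble each other by that alone, and the values are descriptions. Scd1 was most like Chrna4, a nicotinic acetylcholine receptor subunit (0.90 and 0.93), Klk1b4, a kallikrein (0.94 and 0.90), and Elovl2, an elongase of polyunsaturated fatty acids (0.87 and 0.92). Scd4 was most like Scd3 (0.93 and 0.90), and both shared Ugt1a5, Acacb and Pltp among their 4 nearest genes. Acacb encodes the acetyl-CoA carboxylase at mitochondria, and Pltp the phospholipid transfer protein. Scd2 resembled another set, led by Ppp1r9b (0.83 and 0.90), Nin (0.81 and 0.80), a centrosomal protein, and Arhgap23 (0.82 and 0.79).

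After subtracting group means, which removes the diet contrast, the split remained for Scd1 and Scd2. Scd1 was then nearest to Klk1b4 (0.84 and 0.67) and Scd3 (0.65 and 0.60), and its correlation with Scd2 was 0.00 in the WT table and −0.35 in the KO table. Scd3 and Scd4 correlated at 0.69 and 0.87, and Scd1 and Scd4 at 0.11 and 0.62. Scd2 correlated with Scd3 at 0.57 in the WT table and 0.20 in the KO table, and with Scd4 at 0.57 and 0.02. Scd4 was thus closer to Scd2 than to Scd1 in the WT table, and closer to Scd1 in the KO table. Scd2 was nearest to Ttc28 (0.84 and 0.83), Nin and Phactr2.

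Genes on either side of the cluster did not move as the desaturases did in WT mice. Erlin1, Chuk and Cwf19l1 before the cluster and Sec31b, Ndufb8 and Hif1an after it were tested, and none was called in the WT diet comparison. In KO mice 1 of these 6 was called, against 10.4% of all genes, and it was Ndufb8, a subunit of mitochondrial complex I. It was lower in KO obese than in KO lean mice (Log2FC = −0.86, BH-adjusted p = 0.0173 in limma, and 0.0971 with the random block). It was higher in KO lean than in WT lean mice (Log2FC = 0.77, BH-adjusted p = 0.0461 in limma), but not called with the block (0.153).

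The enzymes around the desaturases were then counted from lists of pathway genes. In a fit with a random block for the identifier number, 14 of the 25 calls of these lists in the WT diet comparison held, as did 14 of 17 in the KO diet comparison, with a gene counted in each list that holds it. Where a gene named below lost its call in that fit, this is stated. Over all genes tested, the shares called higher, to set beside the shares called lower given above, were 2.26% in the WT diet, 4.97% in the KO diet and 3.94% in the lean genotype comparison. Upstream of the reaction, 16 enzymes of lipogenesis were tested. In WT obese mice 1 was called higher and 4 lower (median Log2FC −0.22, against 0.00 over all genes). Thrsp, a lipogenic protein of liver, was higher (Log2FC = 2.17, BH-adjusted p = 0.00792 in limma). Elovl6, which elongates palmitate to stearate and so supplies the substrate of Scd1, was lower (−1.59, adjusted p 0.00503), as were malic enzyme Me1 (−0.66, adjusted p 0.0230) and Acacb (−1.12, adjusted p 0.0509), by the same test. The call of Acacb was lost with the block (adjusted p 0.200 in limma). Fasn, the fatty acid synthase, had a Log2FC of −0.40 and an adjusted p of 0.445. In KO obese mice 2 were called higher, Pklr, the liver pyruvate kinase, at 1.20 and Thrsp at 2.38, and none lower.

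The lean genotype comparison gave 3 lipogenic enzymes called lower and none higher. They were Acaca, the cytosolic acetyl-CoA carboxylase (Log2FC = −0.91, BH-adjusted p = 0.0302 in limma), Fasn (−1.25, adjusted p 0.0357) and Elovl6 (−0.79, adjusted p 0.0953). Fasn and Acaca were named after their values were seen in this comparison. A random block for the identifier number left none of the 3 called, and their BH-adjusted p in limma then lay between 0.138 and 0.164.

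Elongases act on the same acyl-CoAs. Of 11 genes of elongation, 4 were called lower in WT obese mice and 3 in KO obese mice, and none higher. Elovl3 had a Log2FC of −1.88 in WT (BH-adjusted p = 0.000291 in limma) and −1.71 in KO mice. Elovl2 and Elovl5, which serve polyunsaturated fatty acids, had −1.08 and −0.99 in WT and −0.96 and −0.89 in KO mice. Elovl6 was called in WT but had −0.62 with an adjusted p of 0.246 in KO mice, and the difference between the genotypes was 0.97 (BH-adjusted p = 0.284 in limma).

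Of the other desaturases 2 of 6, Fads3 and Fads2, were called lower in each diet comparison. In WT mice neither call held with the block, at adjusted p of 0.123 and 0.167 in limma. Fads2, the desaturase that opens the polyunsaturated pathway, had a Log2FC of −0.80 in WT and −0.72 in KO mice, and Fads3 had −1.12 and −1.18, against −2.39 and −2.25 for Scd1. Of the electron donors, 1 of 6 tested was called in WT obese mice, the reductase Cyb5r3, which was lower (−0.59, BH-adjusted p = 0.0792 in limma, and 0.289 with the block), and cytochrome b5 itself (Cyb5a) had 0.57 with an adjusted p of 0.128. In KO obese mice 0 of 7 were called.

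Among 24 regulators of lipogenesis, 2 were called higher and 4 lower in WT obese mice, and 1 higher and 1 lower in KO obese mice. With the block 3 of the 6 calls in WT mice held, and those of Pparg, Srebf1 and Insig2 were lost at adjusted p of up to 0.180 in limma. Lepr, the leptin receptor, was lower by more than any desaturase (Log2FC = −3.96 in WT with a BH-adjusted p of 0.00149 in limma, and −3.01 in KO). Pparg, the adipogenic nuclear receptor, was higher (1.62 and 2.05), though not with the block in WT mice (adjusted p 0.130 in limma). The insulin receptor substrates Irs1 (−0.97) and Irs2 (−1.48) were lower in WT obese mice. Srebf1, which encodes SREBP1, the best known activator of Scd1, was higher in WT obese mice (0.96, BH-adjusted p = 0.0628 in limma). This call too was lost with the block (adjusted p 0.161 in limma). The part of Srebf1 in the Scd1 difference was not tested. Mlxipl, which encodes ChREBP, had −0.02 with an adjusted p of 0.971 in WT mice.

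Among the pathway lists, PPARα targets had the largest share called in each of the diet comparisons without the block. Of 13 genes, 6 were lower in WT obese and 7 in KO obese mice, and none was higher, with medians of −1.05 and −0.95. With the block 4 and 5 held, the others reaching adjusted p of up to 0.275 in WT and 0.217 in KO mice in limma, and 4 PPARα targets of 13 in WT mice was then a smaller share than the 4 elongation genes of 11. Ehhadh of peroxisomal β-oxidation had −1.48 and −1.81, the thioesterase Acot1 −1.39 and −1.53, Fgf21 −1.68 and −1.39, and the lipid droplet protein Plin2 −1.02 and −0.95. Acyl activation had 1 of 11 called in WT mice, Acsl5 (−0.60, not called with the block), and none in KO mice. Cholesterol synthesis genes driven by SREBP2 had 0 of 12 called in WT and 1 in KO mice, Cyp51 (−0.86, not called with the block). In the obese genotype comparison and in both RvE1 comparisons, none of these lists had a gene called.

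**Figure D5:**
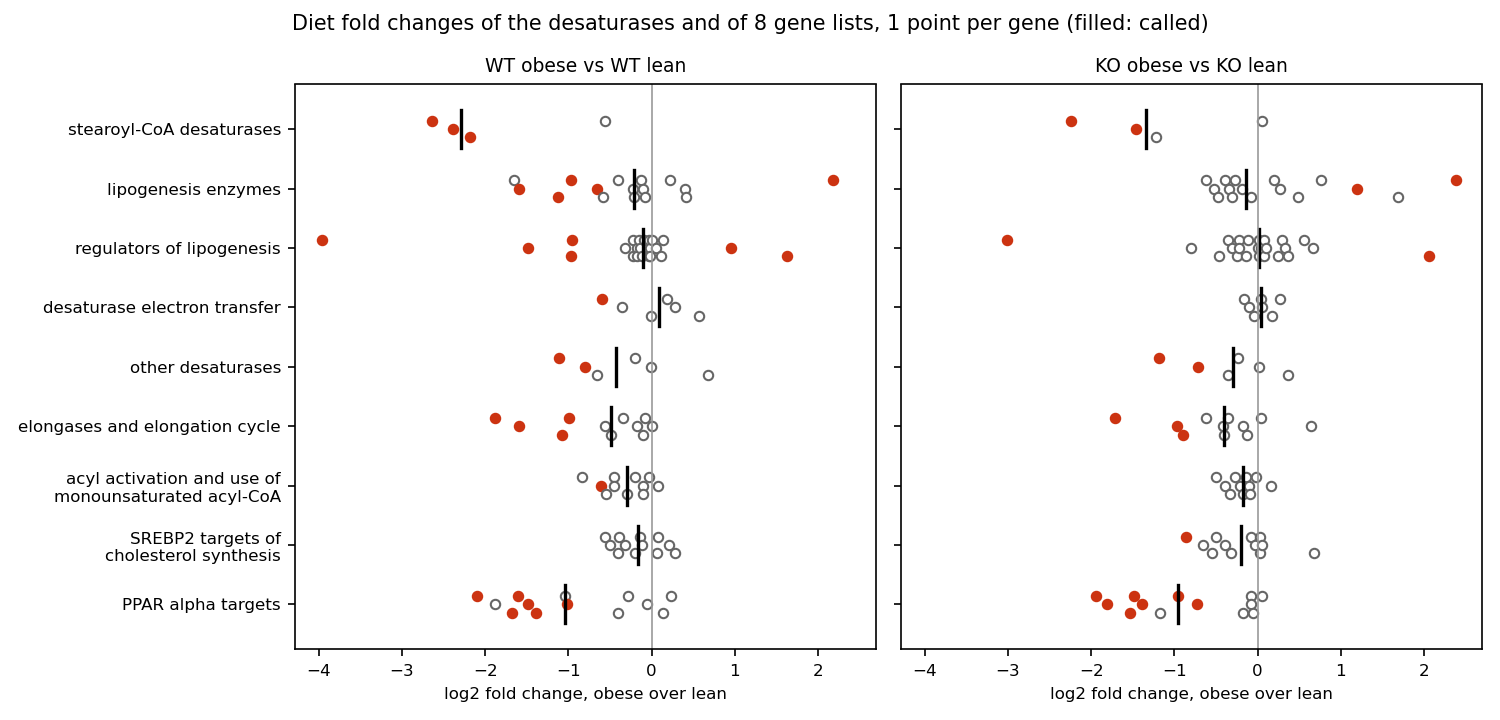
Log2FC, obese over lean (horizontal axis, log2 of normalized count + 1), of the desaturases and of each tested gene of 8 pathway lists in WT mice (left) and KO mice (right), with 1 point per gene, filled where called, and a black bar at each list's median. In both panels no elongase, other desaturase or PPARα target is called higher, and 2 or more genes of each are called lower.

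Markers of other cell types moved with some of these results. All 6 Kupffer cell markers were higher in KO lean than in WT lean mice (median Log2FC 0.93), and their summed level rose from a median of 3419 to 6662 normalized counts, with Cd5l the most abundant. A random block for the identifier number left none of the 6 called, at BH-adjusted p of 0.138 to 0.160 in limma. In KO obese against KO lean mice, 5 of the 6 were lower, all but Marco, also with the block, and the sum went from 7336 to 4304. In the WT diet comparison, where Scd1, Scd3 and Scd4 were reduced most firmly, none of the 6 was called and the median sums were 3308 and 3124. The part of the Kupffer markers in the lean genotype difference of Scd3 and Scd4 was not tested.

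Adipocytes also express Scd1 and Scd2. Of 8 adipocyte markers only Cfd, Car3 and Cidec are listed in the diet tables, and Cfd was higher in obese mice of both genotypes (Log2FC = 4.34 in WT, BH-adjusted p = 1.76e-05 in limma, and 3.01 in KO, where the call was lost with the block). Car3, the most abundant of the 3, is also made by hepatocytes and was called higher in KO obese mice (2.06, BH-adjusted p = 0.0116 in limma), which makes 2 of 3 called there and 1 of 3 in WT mice. Cidec had −0.12 in KO mice. The defining markers Adipoq and Plin1 are listed only in the obese genotype table, where they averaged 5.15 and 4.26 normalized counts in WT obese and 3.42 and 2.18 in KO obese mice. Most of this came from a single mouse in each group. WT obese replicate 5, the mouse without which Scd2 was called in the WT diet comparison, had 32.3 and 28.4, and without it the WT means were 0.624 and 0.235. Without KO obese replicate 3 the KO means were 1.06 and 0.377. The part of adipocyte RNA in the Scd2 values was not tested.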

How the data were processed

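Liver RNA from 42 mice was sequenced as total RNA with a stranded kit. Per the submitters' processing notes and the study's methods, the authors used FastQC, Bowtie2, featureCounts of Subread and DESeq2 with the mm10 build (versions not given in the sources used here) and deposited DESeq2-normalized counts (a signal, not raw counts) per mouse in 6 tables of 14 libraries. Columns of log2 fold changes and p-values by the authors stand beside them and were not used, and only genes with an adjusted p are listed. Whole reads were recovered from the normalized counts (100% of values within 0.1 read), and they served the alternatives.

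Groups were compared within a table by limma 3.58.1 (R 4.3.3; lmFit and eBayes with a trend) on log2(normalized count + 1), for genes whose mean was at least 5, with BH adjustment over all genes tested. Calls required an adjusted p below 0.1 and a fold change above 1.5. Tests were two-sided. Steps were tested on simulated data, and of 200 genes changed 3-fold 84.5% were recovered for the WT diet comparison. Alternatives included edgeR 4.0.16 and DESeq2 1.42.0 on recovered reads. The 126 library pairs within groups differed beyond sampling noise. Coding identities came from pairwise global alignments with Biopython 1.88, and the 60-base stretch was taken from an alignment of all 4 coding sequences with MAFFT 7.526. Most genes were named if members, or if among the 4 smallest adjusted p of a list in a diet comparison, or if most like a member. Others were named outside this rule, such as Cmklr1, the genes flanking the cluster, Adipoq and Plin1, and Fasn and Acaca as stated above. The members and lists were chosen with earlier results of these data known. Date-like gene names were not used.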

Additional observations from a re-analysis of the deposited data

Results flagged for a closer look

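KO obese+RvE1 replicate 2 lay far below the other 6 mice of its group on the log2(normalized count + 1) scale by Dixon's test. Its Scd1 value of 6688 normalized counts, against 56478 in the next lowest mouse, left a gap of 0.590 of the group's log2 range. Its Scd4 value of 0 normalized counts, against 2.86 in the next, left a gap of 0.574, where the critical ratio for 7 mice is 0.568. Its Scd3 gap of 0.497 did not reach that ratio. On the normalized counts themselves the gaps were 0.205 for Scd1 and 0.300 for Scd4. None of the 23 sets tested, each being 1 gene in 1 group, went beyond the critical ratio on that scale. The log2 scale was added after the data were seen, and chance alone marks about 1 in 20 such sets. The sets are not independent, because the same mice enter for each gene.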

How the results depend on the processing

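The reductions of Scd1, Scd3 and Scd4 in WT obese mice and of Scd1 in KO obese mice, and the rise of Scd2 relative to Scd1 in WT obese mice, kept their direction and passed their tests under every alternative run, leave-outs included. For the ratios these were pseudocounts, whole reads and leave-outs of mice and, added after the data were seen, of identifier numbers. The KO rise of that ratio passed in all but 3 of them, the leave-outs of numbers 9, 10 and 20. The other calls did not all hold. In the KO diet comparison 1 member was called, with Scd4 lost, by CPM scaling (Scd4 −1.35), by CPM scaling without Scd reads (−1.38), with a random block for the identifier number (−1.53), and at an adjusted p below 0.05 or an absolute Log2FC above 1.5 (−1.45 in both). In the lean genotype comparison no member (0) was called with the random block (Scd3 −1.30, Scd4 −1.02), by edgeR (−1.01 and −0.94), or under either stricter threshold (−1.31 and −1.04), and 1, Scd3, was called with library weights, with Scd4 lost (−0.83). These weights called Scd3 in the KO diet comparison (−1.44). Scd2 was called in the lean genotype comparison by CPM scaling without Scd reads (−0.59) and with no fold threshold (−0.46). A pseudocount of 4 raised the KO diet ratio of Scd4 to Scd1 past the threshold (1.21). Leave-outs raised further ratios to Scd1 past it. They were the Scd3 ratios of the KO diet and lean genotype comparisons and the Scd4 ratio of the WT diet comparison, given above. The Scd3 ratio between obese genotypes passed as well without KO obese replicate 4 (0.66, adjusted exact permutation p = 0.0793). The cause of these changes was not tested, beyond what a stricter threshold does by construction.

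Signs turned only in differences that were not called. For Scd2 with RvE1 in WT they were −0.031 (random block), −0.042 (edgeR) and −0.036 (DESeq2). In KO they were 0.056 and 0.055 by CPM scaling with and without Scd reads, 0.0068 with the block and 0.0085 by edgeR. Its RvE1 by genotype difference was 0.043 and 0.039 by these scalings, 0.11 with the block, 0.053 by edgeR and 0.034 by DESeq2. Library weights gave −0.10 for Scd3 between obese genotypes, −0.015 for Scd1 with RvE1 in WT, 0.17 for Scd4 with RvE1 in KO and −0.33 for Scd1 in the diet by genotype difference. The Scd4 to Scd1 ratio between obese genotypes was −0.038 with a pseudocount of 0.5 and −0.0044 on whole reads.

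Leaving out each mouse, or all mice of an identifier number, gave 0 to 3 members called in the lean genotype and 1 to 3 in the KO diet comparison. Log2FC ranges in the WT diet comparison were −0.95 to −0.14 for Scd2. In the KO diet comparison they were −2.34 to −0.84 for Scd4, −2.06 to −0.69 for Scd3 and −0.19 to 0.23 for Scd2. In the lean genotype comparison they were −0.61 to −0.28 for Scd1, −1.84 to −0.87 for Scd3, −1.43 to −0.74 for Scd4 and −0.61 to −0.35 for Scd2. Between obese genotypes they were −1.01 to 0.44 for Scd1, −0.27 to 0.54 for Scd2, −0.72 to 0.63 for Scd3 and −1.16 to 0.33 for Scd4. With RvE1 in WT they were −0.23 to 0.79 for Scd1, −0.41 to 0.40 for Scd2 and 0.29 to 0.64 for Scd3. With RvE1 in KO they were −1.34 to 0.38 for Scd1, −0.28 to 0.24 for Scd2, −1.85 to −0.062 for Scd3 and −0.75 to 0.75 for Scd4. For diet by genotype they were −0.57 to 0.89 for Scd1, 0.19 to 1.00 for Scd2, 0.58 to 1.96 for Scd3 and −0.16 to 1.35 for Scd4, and for RvE1 by genotype −1.54 to 0.18 for Scd1, −0.42 to 0.39 for Scd2 and −2.32 to −0.54 for Scd3. The log2 ratio of Scd2 to Scd1 ranged from 1.31 to 3.17 in the KO diet comparison, from −0.26 to 0.14 between lean and −0.53 to 1.33 between obese genotypes, and with RvE1 from −1.15 to 0.53 in WT and −0.39 to 1.57 in KO. That of Scd3 ranged from −0.48 to 0.081 in the WT and 0.64 to 1.398 in the KO diet comparison, from −1.23 to −0.47 between lean and 0.088 to 0.66 between obese genotypes, and with RvE1 from −0.22 to 0.64 in WT and −0.77 to 0.14 in KO. That of Scd4 ranged from −0.062 to 0.64 in the WT diet comparison, from −0.42 to 0.29 between obese genotypes and from −0.15 to 0.72 with RvE1 in KO.

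Genes called over the whole table numbered 532 in the WT diet comparison, against 242 with the random block, 357 by CPM scaling without Scd reads and 105 at an absolute Log2FC above 1.5, and 866 in the lean genotype comparison, against 3 with the random block and 1536 with library weights. CPM scaling moved the median of all genes by 0.14 in the KO diet and −0.12 in the lean genotype comparison. No paired analysis was possible because the labels give no replicate numbers and no compared groups share more than 1 identifier number (23, in KO obese and KO obese+RvE1). Scd4 rests on 0 to 53 reads per library. The limit set by a count of 0 covers counting error only, and the 95% intervals rest on the spread among mice.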

Other observations

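Reads on the other cell type lists gave few calls. Hbb-bs, a globin of red cells and 1 of 2 erythroid markers tested, was lower in KO obese than in KO lean mice (Log2FC = −1.49, BH-adjusted p = 0.0289 in limma). In the same comparison 3 of 5 lymphocyte markers were lower, led by the B cell gene Ms4a1 (−1.68). Ms4a1 and the monocyte receptor gene Ccr2 were higher in KO lean than in WT lean mice (1.09 and 0.78), as all 6 Kupffer cell markers were. Each was the only call of its list, of 2 lymphocyte and of 3 neutrophil and monocyte markers tested. Clec4g of sinusoidal endothelium (−0.73) and Des of stellate cells (−0.59) were lower in KO obese than in KO lean mice, and the bile duct keratin Krt19 was lower in KO lean than in WT lean mice (−0.62). Of the pancreatic acinar list, Cela1 alone is listed in the diet tables and it was not called. None of these lists had a gene called in the WT diet comparison apart from the adipocyte list, with Cfd. A random block for the identifier number left none of the 9 marker genes called between lean genotypes, and 7 of the 13 in the KO diet comparison, with Ms4a1 among them and Hbb-bs, Clec4g and Des not.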
